A study of Mus musculus with 6 samples.

Results

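The amyloid precursor protein (APP), its relatives and the proteases that cut them were followed at the RNA level in the olfactory bulb (OB) of aged Tg2576 mice. The group held 9 genes of 22206 probe sets tested, namely App, Aplp1 and Aplp2 for the precursor family, Adam10 and Adam17 for the α-secretases, Bace1 and Bace2 for the β-secretases, and Psen2 and Ncstn for the γ-secretase complex. They were chosen by gene symbol in the array's annotation, and each of the 9 genes had 1 probe set, so the highest-mean set per gene was also the sole one. All 9 were measured on every array, and none was removed by a filter on low values.

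Each of 6 Affymetrix mouse Clarion S arrays carried the OB RNA of 1 female mouse of 18 months, with 3 separate mice per genotype. The 3 Tg2576 mice were transgenic for human APP with the Swedish double mutation under the hamster prion promoter, and the 3 WT mice were littermates without it according to the methods. The mouse App gene was present in both groups, since the transgene is an addition to the genome. Whole bulbs were extracted, so fewer cells of a type and less RNA per cell cannot be told apart. Values are log2 expression as deposited after robust multi-array averaging (RMA), so that a difference of 1 is a doubling.

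APP is a membrane protein with 2 main routes of cleavage. An α-secretase cuts inside the β-amyloid (Aβ) stretch and releases a soluble ectodomain, whereas β-secretase cuts at the start of Aβ and leaves a fragment from which γ-secretase then frees the peptide. APLP1 and APLP2 resemble APP and are shed by related enzymes, but they lack the Aβ sequence. In the bulb, these proteins are made by neurons and in part by glia, and Tg2576 mice are known for Aβ deposits in old age.

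After RMA, which includes quantile normalization between arrays, the arrays were alike, which does not measure RNA quality. The array medians lay between 8.18 and 8.22, Pearson's r between arrays was 0.992 to 0.995, and all 13 of 13 markers of bulb neurons, among them Th, Tbx21 and Gad1, were above the median of the negative control probe sets on every array. Markers of the olfactory mucosa other than neurons (11 measured, 3 of them below that median on every array) stood apart by array, with list means from -0.12 to 1.13 above the WT mean in Tg2576 OBs and from -0.20 to 0.30 in WT OBs. The Tg2576 array without the higher list mean was replicate 2, and the WT array with the highest was replicate 3. Not every marker followed the list mean, since Trp63 was highest in Tg2576 replicate 2 (0.94). The 10 measured markers of olfactory sensory neurons had list means from 0.25 to 0.65 in Tg2576 OBs and from -0.13 to 0.18 in WT OBs, and those of red blood cells rested on 1 gene, at 0.17 to 0.72 in Tg2576 OBs and -0.48 to 0.25 in WT OBs. Over the whole array 177 probe sets (0.797%) passed the thresholds of the study, an unadjusted p under 0.01 with a fold over 1.3 or under 0.7, and of these 155 (0.698%) were higher and 22 (0.0991%) were lower in Tg2576 OBs. After Benjamini-Hochberg adjustment at 0.05 limma called 0 of the 22206 probe sets, and its lowest adjusted p = 0.33, against 9 called with a lowest adjusted p = 0.022 by robust limma-trend. Without Tg2576 replicate 2 limma called 6 probe sets, with a lowest adjusted p = 0.00049, and it called 0 without any other single array. Without adjustment, 1896 (8.54%) had a p under 0.05 and 468 (2.11%) had a p under 0.01. Only genes past both thresholds are said to have risen or fallen below.

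The stretches of 200 bases before the annotated start are shown for the mouse App gene, which the hamster prion promoter of the transgene does not replace, and for the 4 genes whose arrays did not overlap between genotypes. They are from RefSeq on build GRCm38.p6, in which 7 of the 9 genes were matched, and run 5′ to 3′ on the strand of the gene. Capitals mark GGGCGG (the GC box) and CCAAT (the CCAAT box) on either strand, so that the same motifs read CCGCCC and ATTGG where they lie on the other strand. None of the matches shown overlap each other.
App, chr16:85173708-85173907, minus strand: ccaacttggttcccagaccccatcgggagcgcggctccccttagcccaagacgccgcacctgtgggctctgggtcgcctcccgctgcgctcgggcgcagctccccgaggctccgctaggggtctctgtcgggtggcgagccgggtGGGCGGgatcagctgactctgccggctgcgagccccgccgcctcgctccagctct
Aplp2, chr9:31211849-31212048, minus strand: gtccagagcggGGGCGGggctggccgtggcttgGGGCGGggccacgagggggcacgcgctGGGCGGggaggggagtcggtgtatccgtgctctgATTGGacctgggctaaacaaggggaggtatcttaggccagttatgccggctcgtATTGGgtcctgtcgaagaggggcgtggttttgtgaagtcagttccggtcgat
Adam17, chr12:21373633-21373832, minus strand: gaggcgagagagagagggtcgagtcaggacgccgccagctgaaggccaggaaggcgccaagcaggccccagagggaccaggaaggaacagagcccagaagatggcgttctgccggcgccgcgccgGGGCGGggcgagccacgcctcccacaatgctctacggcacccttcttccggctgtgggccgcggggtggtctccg
Psen2, chr1:180256301-180256500, minus strand: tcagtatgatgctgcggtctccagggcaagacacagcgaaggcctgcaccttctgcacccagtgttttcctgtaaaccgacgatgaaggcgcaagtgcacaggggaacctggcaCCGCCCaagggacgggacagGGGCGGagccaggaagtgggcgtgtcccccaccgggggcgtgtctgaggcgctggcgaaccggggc
Ncstn, chr1:172082750-172082949, minus strand: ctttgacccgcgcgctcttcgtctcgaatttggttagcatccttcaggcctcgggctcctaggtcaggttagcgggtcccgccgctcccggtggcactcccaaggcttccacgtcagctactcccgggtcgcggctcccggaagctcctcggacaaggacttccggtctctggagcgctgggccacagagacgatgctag

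These upstream stretches were rich in G and C and had no TATA box. The GC content was 73.0% for App, 65.0% for Aplp2, 70.5% for Adam17, 65.5% for Psen2 and 64.5% for Ncstn, against a median of 53.0% over all 32851 windows of the table. The letters GGGCGG occurred 1 time for App, 3 times for Aplp2, 1 time for Adam17, 2 times for Psen2 and 0 times for Ncstn, and 31.0% of all windows held them at least once. Aplp2 had 2 CCAAT matches (29.3% of all windows had any), and the letters TATAAA, present in 9.96% of all windows, were in none of the 7 members' windows. CACGTG (the E-box, in 5.26% of windows) was found 1 time for Adam10 and in none of the 5 stretches shown. Psen2 has 2 annotated starts, and the one farther upstream was used. Such matches describe the letters only.

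The signal of the mouse App probe set did not separate the genotypes. The App values were 12.32, 12.33 and 12.37 in Tg2576 OBs (replicates 1 to 3) and 12.28, 12.42 and 12.39 in WT OBs. The Tg2576 arrays thus lay within the range of the WT arrays, of which WT replicate 1 was the lowest. App averaged 12.34 ± 0.026 in Tg2576 OBs and 12.36 ± 0.073 in WT OBs (SD, 3 arrays each). The log2 difference, Tg2576 minus WT, was -0.023 with a 95% confidence interval from -0.20 to 0.15 (limma adjusted p = 0.96). In linear terms the interval runs from 0.87-fold to 1.11-fold, so that a change of the signal by 1.3-fold in either direction lay outside it. The sources used here do not say whether the probes of the mouse App set bind the human transcript, so this value is of the probe set and does not check the labels.

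Among the relatives of App, Aplp1 was at the same level in both genotypes and Aplp2 was slightly higher in each Tg2576 array. Aplp1, which encodes a mostly neuronal member of the family, was at 12.23, 12.24 and 12.14 in Tg2576 OBs and at 12.13, 12.20 and 12.25 in WT OBs, with full overlap (difference 0.012, interval -0.16 to 0.18). Its sign turned to negative when arrays were scaled by cyclic loess, quantiles or medians. Aplp2, a broadly expressed member with much overlap in function with App, was at 12.33, 12.36 and 12.33 in Tg2576 OBs and at 12.27, 12.23 and 12.26 in WT OBs, so that no Tg2576 array reached down to a WT array. The difference of 0.087 (interval -0.072 to 0.25, adjusted p = 0.79) did not pass the thresholds. The replicate spread of Aplp2 was narrow, and only 0.306% of the probe sets tested had a lower pooled SD.

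**Figure D1:**
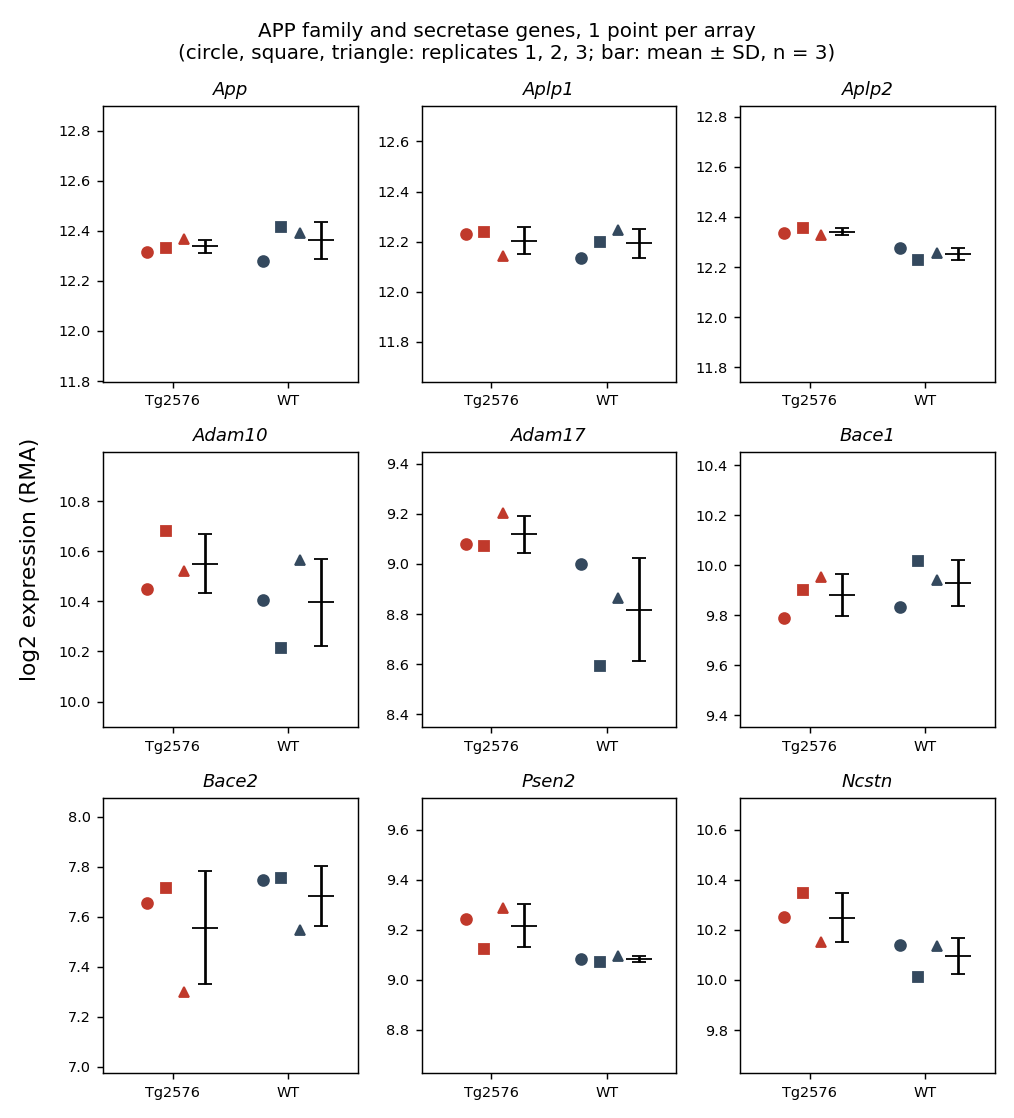
Log2 expression (RMA, vertical axis) of the 9 genes in Tg2576 and WT OBs, with 1 symbol per array and the mean with its SD (n = 3) as a bar; the vertical axes have equal spans but different ranges. App, Aplp1, Adam10, Bace1 and Bace2 overlap between genotypes, whereas Aplp2, Adam17, Psen2 and Ncstn do not.

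Of the α-secretase genes, Adam17 had the largest difference of the 9 genes, without passing the thresholds. Adam17, which encodes a regulated α-secretase best known for shedding tumour necrosis factor, was at 9.08, 9.07 and 9.20 in Tg2576 OBs and at 8.998, 8.59 and 8.86 in WT OBs. The Tg2576 arrays were all above the WT arrays, although WT replicate 1 was close to them and WT replicate 2 was low. Adam17 averaged 9.12 ± 0.074 in Tg2576 OBs and 8.82 ± 0.21 in WT OBs (SD, 3 arrays each), which makes a difference of 0.30 (interval 0.047 to 0.55), or 1.23-fold. The unadjusted p of 0.025 was under 0.05 but not under 0.01, and the fold was under 1.3 (limma adjusted p = 0.53). Adam17 passed both thresholds only without WT replicate 1 (0.39), and the difference was 0.19 without WT replicate 2. Adam10, which encodes the main constitutive α-secretase of neurons, was at 10.45, 10.68 and 10.52 in Tg2576 OBs and at 10.41, 10.22 and 10.57 in WT OBs. Here WT replicate 3 lay above 2 of the Tg2576 arrays, and the difference of 0.15 (interval -0.093 to 0.40) did not pass the thresholds. It was 0.065 without WT replicate 2, 0.090 without Tg2576 replicate 2 and 0.24 without WT replicate 3.

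The β-secretase genes had slightly lower means in Tg2576 OBs, by amounts that depended on single arrays. Bace1, the neuronal β-secretase that starts Aβ production, was at 9.79, 9.90 and 9.95 in Tg2576 OBs and at 9.83, 10.02 and 9.94 in WT OBs, and the genotypes overlapped. Its difference of -0.048 had an interval from -0.24 to 0.14, that is from 0.85-fold to 1.11-fold, and it was -0.0027 without Tg2576 replicate 1, -0.0055 without WT replicate 2 and -0.096 without WT replicate 1. Bace2, a homologue that cuts APP mainly within Aβ, was at 7.65, 7.72 and 7.30 in Tg2576 OBs and at 7.75, 7.75 and 7.55 in WT OBs, with the third replicate lowest in each genotype. The difference was -0.13 (interval -0.41 to 0.15), and without Tg2576 replicate 3, the lowest of all arrays, it was 0.0021. Bace2 was also the gene closest to background, above 60.0% of the negative control probe sets in its lowest array, whereas the other 8 genes were above 81.7% or more of them in every array.

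Both γ-secretase genes of the group were slightly higher in every Tg2576 array. Psen2, one of the presenilins that form the catalytic core, was at 9.24, 9.12 and 9.29 in Tg2576 OBs and at 9.08, 9.07 and 9.09 in WT OBs. The WT arrays were nearly alike (SD 0.011) and the Tg2576 arrays more spread (SD 0.085), and the difference of 0.13 (interval -0.042 to 0.31) did not pass the thresholds. Ncstn, which encodes nicastrin, the subunit that receives the substrate, was at 10.25, 10.35 and 10.15 in Tg2576 OBs and at 10.14, 10.01 and 10.14 in WT OBs. Its highest WT value lay just under its lowest Tg2576 value, and the difference was 0.15 (interval -0.038 to 0.35, adjusted p = 0.66).

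**Figure D2:**
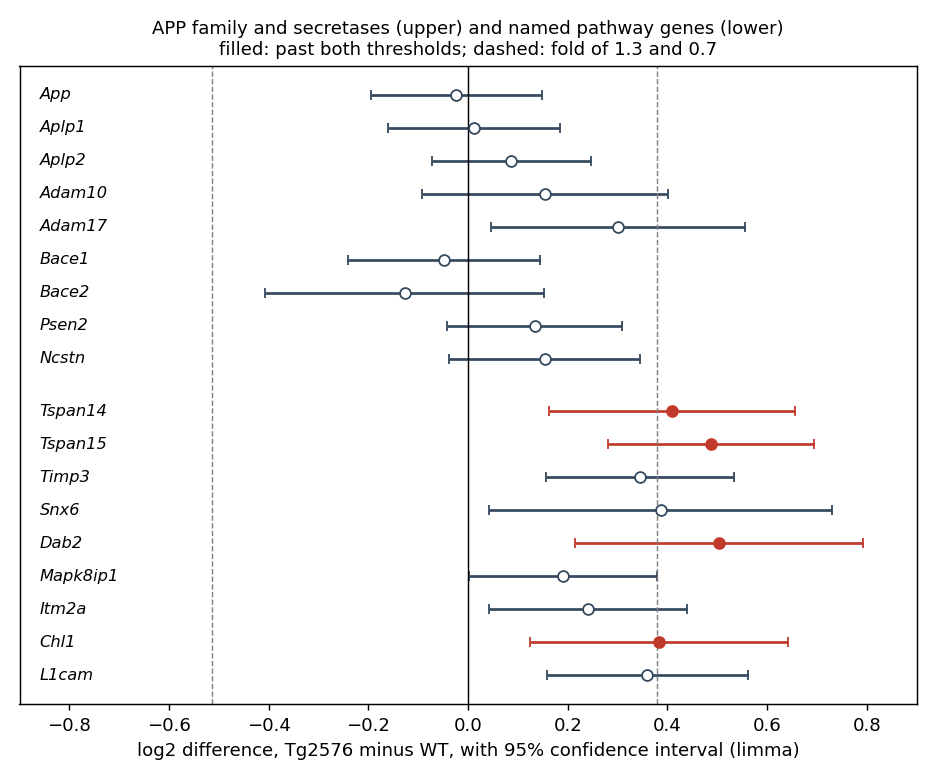
Log2 difference, Tg2576 minus WT, with its 95% confidence interval from limma (horizontal axis), for the 9 genes (upper block) and the 9 pathway genes with an unadjusted p under 0.05 (lower block); filled symbols are past both thresholds and dashed lines mark folds of 1.3 and 0.7. None of the 9 genes of the upper block is filled, against 4 in the lower block (Tspan14, Tspan15, Dab2 and Chl1).

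Across the group, 0 of 9 genes passed the thresholds, beside 0.797% of all probe sets (0.698% higher, 0.0991% lower), 0 of 9 had an unadjusted p under 0.01, beside 2.11%, and 1 of 9 (Adam17) was higher at an unadjusted p under 0.05, beside 4.57% of all probe sets. With so few genes a count of 0 called is near that background. The arrays of the genotypes did not overlap for 4 of 9 genes, beside 14.1% of all probe sets, and all 4 were higher in Tg2576 OBs, beside 7.03% of all probe sets that were higher and 7.03% that were lower without overlap. The median difference of the 9 genes was 0.087, beside -0.0049 over all probe sets. For 6 of 9 genes (App, Aplp1, Aplp2, Bace1, Psen2 and Ncstn) the whole interval lay within 1.3-fold in either direction, beside 70.3% of all probe sets, and for Adam10, Adam17 and Bace2 a difference of that size was not excluded by the interval. Ordered by difference, Adam17 came first and was followed by Adam10, Ncstn, Psen2, Aplp2, Aplp1, App, Bace1 and Bace2, and the intervals of all neighbours in this order overlapped.

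The arrays of a genotype did not rank the genes alike. WT replicate 2 was the lowest WT array for Aplp2, Adam10, Adam17, Psen2 and Ncstn and the highest WT array for App, Bace1 and Bace2. Tg2576 replicate 2 was the highest Tg2576 array for Aplp1, Aplp2, Adam10, Bace2 and Ncstn and the lowest for Adam17 and Psen2. Over the 6 arrays, Pearson's r was 0.89 between App and Bace1, 0.89 between Aplp2 and Ncstn, 0.87 between Aplp2 and Adam17 and 0.82 between Adam10 and Ncstn, and it was lowest, at -0.73, between Bace2 and Psen2. These are descriptions of 36 pairs over 6 arrays that share their RNA and normalization, and any difference between genotypes enters them. The mean deviation of Adam10 and Adam17 from their WT means minus that of Bace1 was 0.30, 0.30 and 0.23 in Tg2576 OBs and 0.19, -0.29 and 0.097 in WT OBs, without overlap and with WT replicate 2 again apart. This contrast was not among the planned results and leaves out Bace2, and the share of such contrasts without overlap was not computed. Taken singly, Adam17 minus Bace1 was 0.40, 0.28 and 0.36 in Tg2576 OBs and 0.28, -0.31 and 0.035 in WT OBs. Adam10 minus Bace1 was 0.19, 0.31 and 0.10 in Tg2576 OBs and 0.11, -0.27 and 0.16 in WT OBs, so that the genotypes overlapped for Adam10 and, by a narrow margin, not for Adam17.

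**Figure D3:**
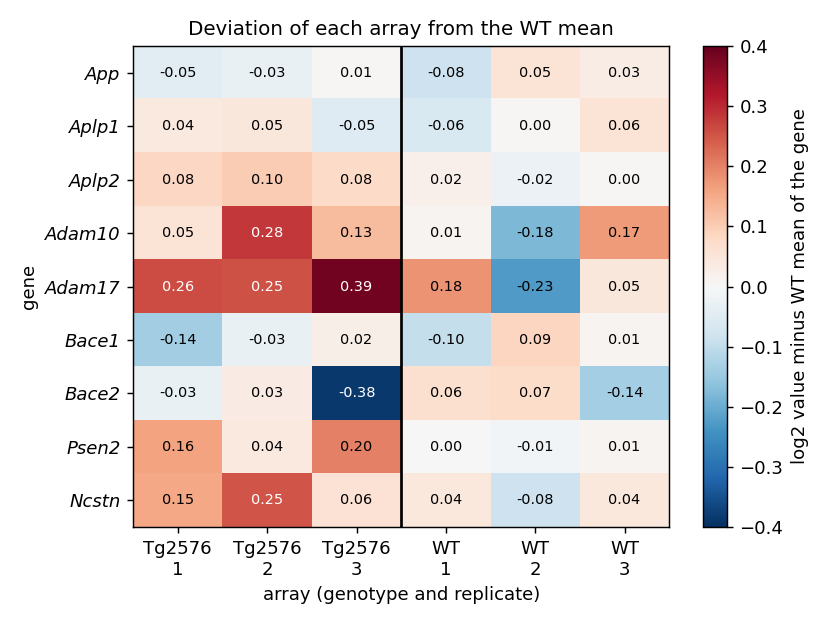
Log2 value of each array minus the WT mean of the gene (colour and printed value), with genes in rows and the Tg2576 arrays (left) and WT arrays (right) in columns. Adam17 is red in all 3 Tg2576 arrays (0.26, 0.25 and 0.39) but also in WT replicate 1 (0.18), and the deepest blue cell is Bace2 in Tg2576 replicate 3 (-0.38).

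The probe sets most like App over the 6 arrays were searched among 14089 with a gene symbol and a mean of at least 7. Those with the highest Pearson's r were Wrn (0.990), Lmo2 (0.988), Mfsd4b5 (0.988), Slc35b3 (0.985) and Prm3 (0.984), each over 6 arrays, and 150 probe sets had an r over 0.9. Wrn, which encodes a DNA helicase, was at 7.68, 7.69 and 7.73 in Tg2576 OBs and at 7.65, 7.78 and 7.76 in WT OBs, the same order of arrays as App. So many values of this size over so few arrays leave the order of these genes as a description.

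Of 68 listed genes that work with the precursor family and its secretases, 64 were measured, and 4 of them rose (Tspan15, Dab2, Tspan14 and Chl1) while none fell, beside 0.698% of all probe sets called higher and 0.0991% called lower. At an unadjusted p under 0.05, 9 were higher and 0 were lower, beside 4.57% and 3.97% of all probe sets, and 42 of 64 lay above 0, beside 48.4% of all probe sets. Their median difference was 0.047, beside -0.0049 over all probe sets, and the genotypes did not overlap for 13 that were higher and 3 that were lower, beside 7.03% of all probe sets each way. Of the other γ-secretase subunits, 4 of 5 were measured, namely the scaffold genes Aph1a, Aph1b and Aph1c and Psenen, which encodes the subunit that activates presenilin. None of the 4 passed the thresholds or had an unadjusted p under 0.05, with differences from -0.074 for Aph1b to 0.17 for Aph1a. Of 5 other proteases that cut APP, 4 were measured, and their differences ran from -0.063 to 0.064 with none past the thresholds and none under an unadjusted p of 0.05. Among them Mep1b, with a mean of 4.54, lay below the median of the negative controls on every array.

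Among the genes nearest to the secretases, both that rose were tetraspanins that escort ADAM10. Of 12 partners and inhibitors of ADAM10 and ADAM17, 2 rose, none fell and 10 did not pass the thresholds, beside 0.698% called higher and 0.0991% called lower on the array, with a median of 0.074. Tspan15, which encodes a tetraspanin that takes ADAM10 to the cell surface and favours some of its substrates, was at 10.30, 10.49 and 10.36 in Tg2576 OBs and at 10.003, 9.90 and 9.78 in WT OBs, with a clear gap between the genotypes. The difference was 0.49 (SE 0.090, interval 0.28 to 0.69, limma unadjusted p = 0.00054, adjusted p = 0.33), and its call was kept under all 14 alternatives, with 0.43 to 0.54 without 1 array. Tspan14, of the same group of tetraspanins, was at 10.49, 10.80 and 10.57 in Tg2576 OBs and at 10.24, 10.06 and 10.33 in WT OBs. It rose by 0.41 (SE 0.11, interval 0.16 to 0.66, adjusted p = 0.41), a call that ended without Tg2576 replicate 2 (0.32), WT replicate 1 (0.42) or WT replicate 2 (0.33), with array weights (0.38) and with a block for the replicate number (0.41). The other 4 tetraspanin genes of this group differed by -0.0031 (Tspan10) to 0.14 (Tspan17) and did not pass the thresholds. Tspan10, with a mean of 5.25, lay below the median of the negative controls on every array.

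Timp3, which encodes a matrix inhibitor of ADAM17 and ADAM10, was at 8.92, 8.95 and 8.81 in Tg2576 OBs and at 8.61, 8.45 and 8.58 in WT OBs. The difference of 0.35 (SE 0.083, unadjusted p = 0.0027, adjusted p = 0.37) passed the threshold on p, and at 1.27-fold it lay under the fold threshold, which it passed without Tg2576 replicate 3 (0.39) or WT replicate 1 (0.38). Rhbdf1 and Rhbdf2, the iRhom genes needed for ADAM17 transport, differed by 0.047 and 0.016. Of 9 genes of BACE1 partners and trafficking, none passed the thresholds, and Snx6, a sorting nexin of retromer transport, had an unadjusted p under 0.05 with a difference of 0.39 (SE 0.15). Its values were 8.34, 8.46 and 8.20 in Tg2576 OBs and 8.23, 7.61 and 8.003 in WT OBs, so that WT replicate 2 stood far below and the genotypes overlapped. Snx6 passed the thresholds without WT replicate 1 (0.53) and was at 0.22 without WT replicate 2.

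Of 20 measured genes of APP sorting receptors, adaptors and the BRI2 family, of 21 listed, 1 rose (0.698% over the array) and none fell (0.0991%), with a median of 0.087. Dab2, an endocytic adaptor for receptors of the LDL receptor family, was at 8.67, 8.71 and 9.05 in Tg2576 OBs and at 8.37, 8.44 and 8.11 in WT OBs, a rise of 0.50 (SE 0.13, adjusted p = 0.38) that lost its call without Tg2576 replicate 3 (0.39) or WT replicate 3 (0.41). Itm2a, a relative of the APP inhibitor BRI2, differed by 0.24 (SE 0.087), and Mapk8ip1, a scaffold that links APP to kinesin, by 0.19 (SE 0.082), both without overlap and neither past the thresholds. Sorl1, which encodes a receptor that holds APP back from β-cleavage, falls outside the rule for named genes and was picked with its values already known, as the one with the largest difference among the 3 listed genes (Sorl1, Sort1 and Sez6l) that were lower without overlap. Sort1 differed by -0.069 and Sez6l by -0.081, neither past the thresholds. The Sorl1 values were 10.88, 10.78 and 10.78 in Tg2576 OBs and 10.96, 10.88 and 11.04 in WT OBs, where the highest Tg2576 array lay just under the lowest WT array. Its difference of -0.15 (SE 0.079, adjusted p = 0.65) did not pass the thresholds.

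Of 15 measured genes of other neuronal substrates of these secretases, of 16 listed, 1 rose (0.698% over the array), none fell (0.0991%) and the median was 0.082. Chl1, an adhesion molecule cut by BACE1, was at 9.38, 9.46 and 9.64 in Tg2576 OBs and at 9.27, 8.91 and 9.15 in WT OBs. Its rise of 0.38 (SE 0.11, adjusted p = 0.46) was just past the fold threshold and ended in 4 of the 6 fits without 1 array (0.28 to 0.40), in the 3 further normalizations (0.37 in each) and with array weights (0.34). L1cam, a related adhesion molecule shed by ADAM10, was at 11.46, 11.59 and 11.41 in Tg2576 OBs and at 11.19, 11.001 and 11.19 in WT OBs. The genotypes were well apart, but the difference of 0.36 (SE 0.089, unadjusted p = 0.0032, adjusted p = 0.37) was 1.28-fold and so under the fold threshold, which it passed without Tg2576 replicate 3 (0.40), WT replicate 1 (0.39) or WT replicate 3 (0.39).

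**Figure D4:**
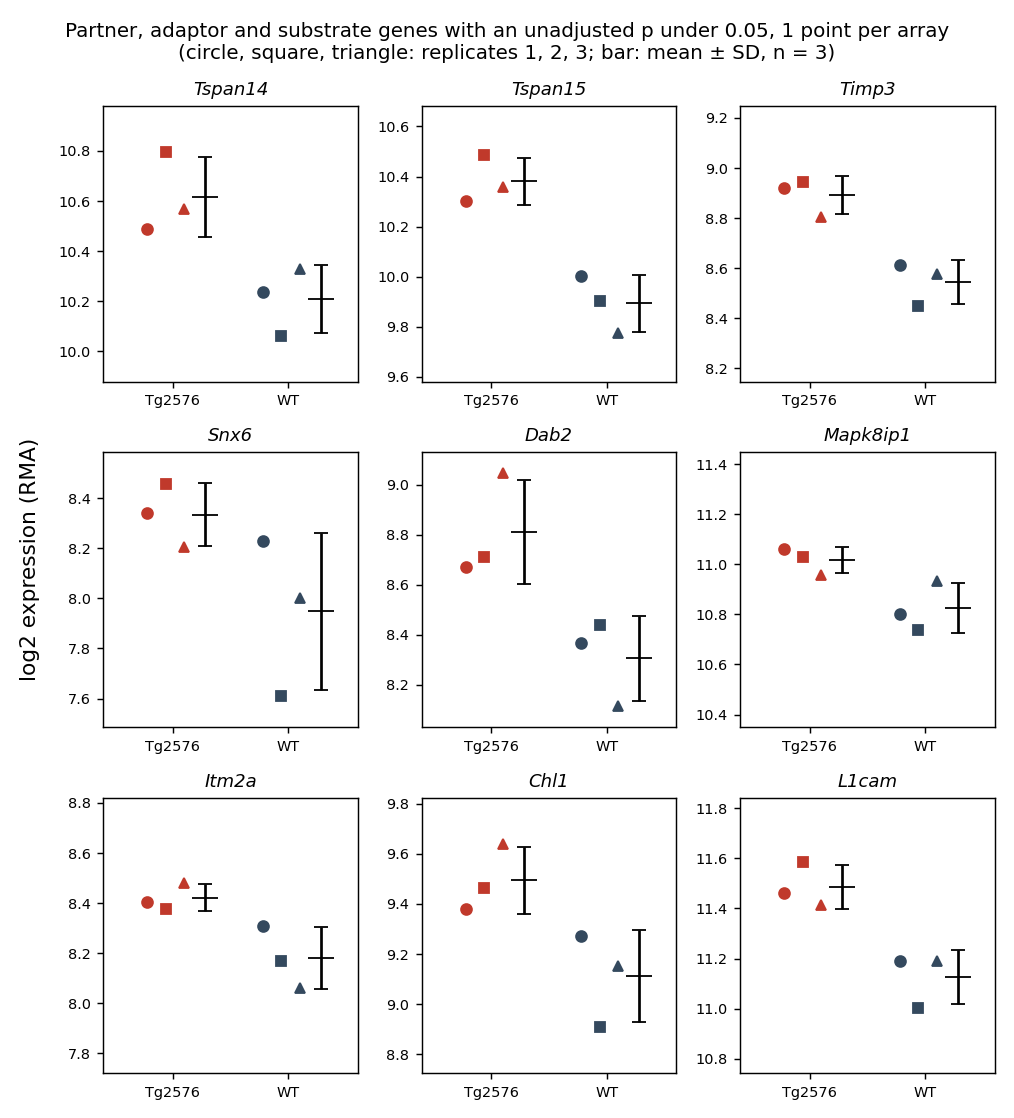
Log2 expression (RMA, vertical axis) of the 9 pathway genes with an unadjusted p under 0.05 in Tg2576 and WT OBs, with 1 symbol per array and the mean with its SD (n = 3) as a bar; the vertical axes have equal spans but different ranges. The lowest Tg2576 value of Tspan15 (10.30) lies above its highest WT value (10.003), and Snx6 alone of the 9 overlaps between genotypes.

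Marker lists of several cell types had higher means in Tg2576 OBs, with 0 to 4 markers of a list past the thresholds. Of the 10 markers of olfactory sensory neurons, whose list means are given above, 4 had risen and 6 were higher at an unadjusted p under 0.05, beside 0.698% and 4.57% of all probe sets, with all 10 above 0 and a median of 0.45. Of these 10, 7 were above the median of the negative controls on every array. Cnga2, among the 6, was below it on every array. The 6 markers of blood vessels had list means of 0.28 to 0.34 above the WT mean in Tg2576 OBs and of -0.047 to 0.092 in WT OBs, with 1 risen and 4 higher at an unadjusted p under 0.05. The 6 astrocyte markers were at 0.19 to 0.25 in Tg2576 OBs and -0.027 to 0.022 in WT OBs, with 1 risen and 5 higher at that p. List means were 0.11 to 0.26 in Tg2576 and -0.053 to 0.047 in WT OBs for 6 microglia markers, 0.085 to 0.39 in Tg2576 and -0.13 to 0.092 in WT OBs for 5 oligodendrocyte markers, and 0.18 to 0.21 in Tg2576 and -0.074 to 0.12 in WT OBs for 7 markers of the meninges and choroid plexus. None of the microglia and oligodendrocyte markers passed the thresholds, and the list mean of Tg2576 replicate 1 lay within the WT range for oligodendrocytes. At an unadjusted p under 0.05, 1 microglia, 3 oligodendrocyte and 2 meninges and choroid plexus markers were higher, and 1 of the last list had risen. For the 13 bulb neuron markers the list means were 0.068 to 0.12 in Tg2576 and -0.027 to 0.015 in WT OBs. Their single differences ran from -0.11 (Gad2) to 0.48 (Tbx21), with 10 above 0 and 3 below. Tbx21 had risen, and 3 were higher at an unadjusted p under 0.05. Of the 11 measured markers of the olfactory mucosa other than neurons, 1 (Trp63) had risen and 3 were higher at an unadjusted p under 0.05. Of these 11, 10 were above 0 and 1 below, with a median of 0.60. The shares of 0.698% and 4.57% of all probe sets stand beside the counts of every list. None of these lists had all its markers below the median of the negative controls. The part of these lists, those of sensory neurons and mucosa included, in the differences of Adam17, Tspan14, Tspan15, Timp3, Dab2 and the other genes was not tested.

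**Figure D5:**
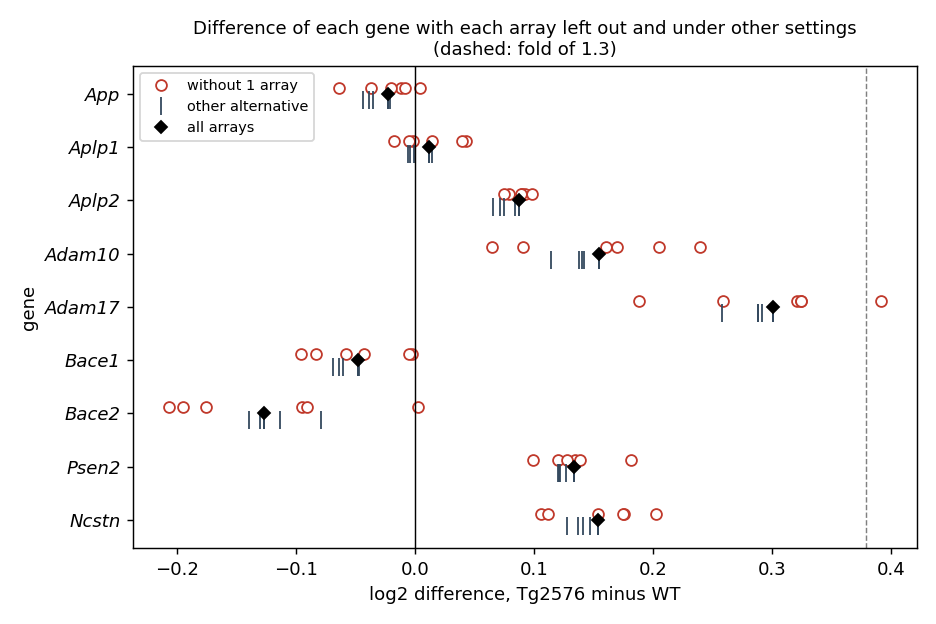
Log2 difference, Tg2576 minus WT (horizontal axis), of the 9 genes with all arrays (diamonds), without 1 array (circles) and under the other alternatives (ticks); the dashed line marks a fold of 1.3. One circle of Adam17, without WT replicate 1, lies past the dashed line at 0.39, and circles or ticks of App, Aplp1 and Bace2 fall on both sides of 0.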

How the data were processed

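The deposited log2 values came from RMA, run by the authors on Clarion S arrays (background correction, quantile normalization between arrays and probe summary), whose version no source used here gives. The values were used as deposited. Of 28815 probe sets, 63 spike-in, 5222 negative and 1324 positive controls were left out and 22206 were tested, of which 19572 had 1 gene symbol, 0 several and 2634 none listed here. Probe sequences, exons and the genome build of the array were not used.

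Groups and replicate numbers were taken from the sample titles. A linear model of genotype with moderated variances was fitted in limma (version 3.58.1, R 4.3.3), with p-values adjusted by Benjamini-Hochberg over all probe sets. The thresholds are an unadjusted p under 0.01 from the methods and folds of 1.3 and 0.7 from a sheet name of the supplement. An exact test of 3 against 3 arrays cannot go below 0.1, and this model is therefore the sole test of a gene. The number of arrays limits the precision. The fit was tested on simulated data.

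The named genes are the 9 genes, every listed pathway gene with an unadjusted p under 0.05, and the 5 genes most like App. The γ-secretase subunits, Mep1b, Tspan10, Tspan17, Rhbdf1, Rhbdf2, Sorl1, Sort1 and Sez6l fall outside this rule and were named after their values were seen. Genes and lists were chosen with earlier results of these data known. Results were recomputed with each array left out, a replicate block, weights for arrays, robust limma-trend, further scaling (cyclic loess, quantiles or medians), only means of 6 or more, only probe sets with 1 symbol, and other thresholds. Figures were drawn with Python 3.11.15 and matplotlib 3.10.9.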

Additional observations from a re-analysis of the deposited data

How the results depend on the processing

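None of the 9 genes passed the thresholds under any alternative except Adam17 without WT replicate 1 (0.39), so the count of higher genes was 0 to 1 and that of lower genes 0. Signs turned for App without WT replicate 2 (0.0043, of a range from -0.065 to 0.0043 without 1 array), for Bace2 without Tg2576 replicate 3 (0.0021, of a range from -0.21 to 0.0021), and for Aplp1 (-0.018 to 0.042 without 1 array) after cyclic loess (-0.0045), quantile (-0.0062) or median scaling (-0.0013) and without Tg2576 replicate 1 (-0.0021), Tg2576 replicate 2 (-0.0057) or WT replicate 1 (-0.018). The 6 genes with an interval inside 1.3-fold were 5 to 7 without 1 array and 6 to 8 otherwise.

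Over the whole array the probe sets called higher were 145 to 202 without 1 array, 280 with no fold threshold and 0 at an adjusted p under 0.05. Those called lower were 23 to 47 without 1 array, 47 of them without WT replicate 1, 75 with a lower fold of 0.769, 188 with no fold threshold and 0 at an adjusted p under 0.05. The replicate numbers did not pair the arrays, since deviations of same-numbered arrays from their group means correlated at 0.036, -0.038 and -0.043. With a block for the replicate number, 200 probe sets were higher and 25 lower, and none of the 9 genes was called. Each of the 9 genes had 1 probe set, so the mean over several sets was not run. The number of arrays limits these results, and the signal near background does too, most of all for Bace2. The means of Adam17 (8.97), Psen2 (9.15) and Bace1 (9.91) also lay under the 95th percentile of the negative controls, 9.94 to 10.07 by array. Of the pathway genes with an unadjusted p under 0.05, this held for Dab2 (8.56), Timp3 (8.72), Snx6 (8.14), Itm2a (8.30) and Chl1 (9.30). Of the genes named outside that rule, it held for Aph1b (9.85), Aph1c (9.65), Rhbdf1 (8.74), Rhbdf2 (8.68), Tspan10 (5.25) and Mep1b (4.54). The cause of these changes was not tested.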
